A study of Homo sapiens with 15 samples.

Results

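The transcripts of 8 cathepsin genes (CTSB, CTSC, CTSD, CTSH, CTSK, CTSL, CTSV and CTSZ) and 2 cystatin genes (CSTB and CST3) were followed by RNA-seq in MIA PaCa-2 cells. The genes were taken by symbol from the 60107 genes listed in the files, of which 22539 had at least 1 read, and each of the 10 symbols was found once. MIA PaCa-2 is an established human pancreatic carcinoma cell line. The cells were treated for 24 h in 5 groups of 3 libraries: a vehicle control, or Lys05, BAQ12, BAQ13 or BAQ12O at 5 µM each. Lys05 is a bisaminoquinoline (BAQ) inhibitor of autophagy that accumulates in lysosomes, and BAQ12 and BAQ13 join its head group to a hydrophobic tail and were applied as self-assembled nanoparticles (NPs). BAQ12 and BAQ13 differ by a methylene unit, while the structure and formulation of BAQ12O are not given in the sources used here. All groups are cultures of the same line, and nothing in the labels says that the libraries of a group came from separate cultures, so the p-values measure only the spread between these libraries, which may be technical.

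Cathepsins are the main proteases of the lysosome, the acidic compartment in which cells break down proteins, and most need its low pH to mature and to work. CTSB, CTSC, CTSH, CTSK, CTSL, CTSV and CTSZ are cysteine proteases of the papain family, whereas CTSD is an aspartic protease. Cystatins are tight-binding inhibitors of the cysteine cathepsins and leave CTSD untouched: cystatin B (CSTB) acts in the cytosol and nucleus, and cystatin C (CST3) is secreted. When a lysosomal membrane is breached, cathepsins reach the cytosol, where CSTB meets them. Genes of lysosomal enzymes are known targets of the transcription factor TFEB, which binds an E-box called the CLEAR element. The comparisons ask how the transcripts of these proteases and inhibitors stood after treatment with lysosome-directed compounds at a matched dose and time.

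The deposited value of a gene is its reads scaled by 1 factor per library, called the normalised read count below. Whole reads could be recovered from these values, and the reads on genes numbered between 1586566 and 2500551 per library (median 2230594). Replicate 3 of BAQ12 stood apart from its group: 8.26% of 5475 well-covered genes differed more than 2-fold from the mean of replicates 1 and 2, against 0% to 1.02% in the other 14 libraries. BAQ12 results are therefore also given without it where it moves them. The labelled epithelial cell type was borne out in part by its markers: KRT8, KRT18, KRT19 and CLDN4 were present, whereas EPCAM had 1 read, CDH1 17 reads, KRT7 3 reads and CLDN7 0 reads over the 15 libraries. Mesenchymal markers were mixed too: VIM was at 9198 to 10781 and ZEB1 at 107 to 185, while CDH2 had 1 read and FN1 2 reads over the 15 libraries.

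CTSC encodes cathepsin C (dipeptidyl peptidase 1), an exopeptidase that activates granule serine proteases. The gene (ENSG00000109861) lies on chromosome 11, 88293592 to 88337787 on the minus strand of GRCh38. Its normalised read count was 2579, 2577 and 2625 in the vehicle libraries, 2781, 2665 and 2569.8 with Lys05, 2504, 2542 and 2034 with BAQ12, 1632, 1726 and 1664 with BAQ13, and 2431, 2394 and 2687 with BAQ12O. The 3 BAQ13 libraries lay below every other library of the study. BAQ13 averaged 1674 ± 47.9 (SD, n = 3) and vehicle 2594 ± 27.4 (SD, n = 3), which is a ratio of 0.645 or, on the log2 scale, -0.63 (standard error, SE, 0.08, limma adjusted p = 6.4e-05). In BAQ12 replicate 3 it was lower than in the other two BAQ12 libraries, and the log2 fold change of BAQ12 from vehicle was -0.14 (limma adjusted p = 0.48) with that library and -0.04 (adjusted p = 0.93) without it. Lys05 and BAQ12O gave no call, with 95% confidence intervals of -0.13 to 0.21 and -0.22 to 0.12 on the log2 scale.

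CTSB encodes cathepsin B, an endo- and carboxydipeptidase of the lysosome that is also studied as a mediator of cell death after lysosomal leakage. The gene (ENSG00000164733) lies on chromosome 8, 11842524 to 11869448 on the minus strand of GRCh38. Its normalised read count was 292, 262 and 276 in the vehicle libraries, 282, 271 and 265 with Lys05, 246, 247 and 251 with BAQ12, 215, 206 and 199 with BAQ13, and 268, 281 and 336 with BAQ12O. The BAQ13 libraries were again the lowest of all 15, and the BAQ12 libraries lay between them and vehicle with no overlap. BAQ13 averaged 207 ± 7.6 (SD, n = 3) and vehicle 277 ± 14.9 (SD, n = 3), which is a ratio of 0.748 or a log2 fold change of -0.42 (SE 0.09, limma adjusted p = 0.011). Without vehicle replicate 1 the adjusted p was 0.056. With BAQ12 the log2 fold change was -0.16 (95% confidence interval -0.35 to 0.04, limma adjusted p = 0.49), and it was -0.17 without replicate 3.

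**Figure D1:**
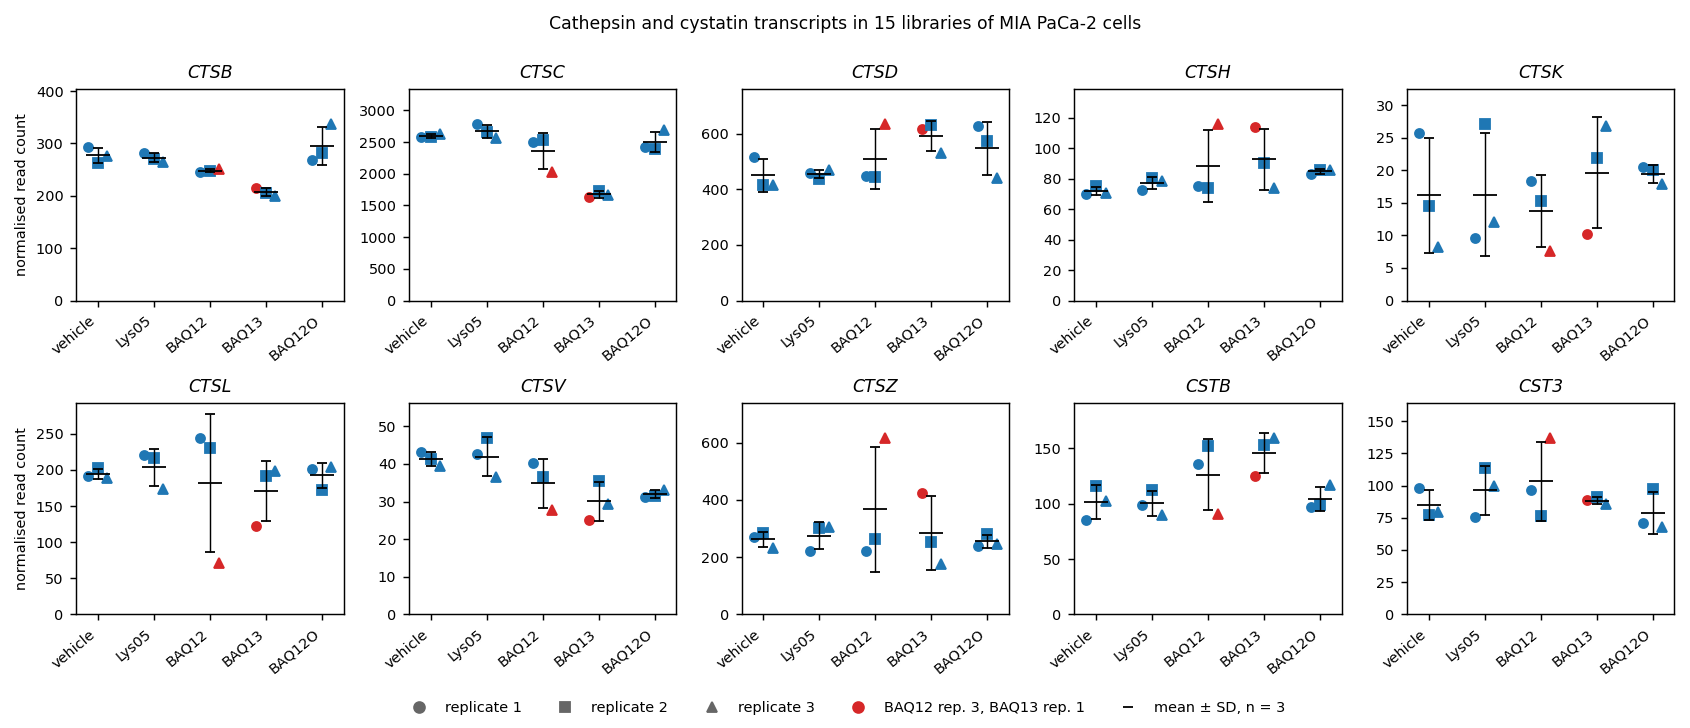
Normalised read count (vertical axes, from 0) of each of the 10 genes in the 15 libraries, by treatment, with the shape of a point giving its replicate number, red points for BAQ12 replicate 3 and BAQ13 replicate 1, and black lines for the mean ± SD of 3 libraries. CTSC and CTSB are lowest in the 3 BAQ13 libraries, while the spread of CTSZ and CTSL in BAQ12 and BAQ13 comes mainly from the red points.

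CTSD encodes cathepsin D, the chief aspartic protease of lysosomes, which needs acid pH for its own activation. The gene (ENSG00000117984) lies on chromosome 11, 1752752 to 1764573 on the minus strand. Its normalised read count was 517, 417 and 415 in the vehicle libraries, 459, 437 and 468 with Lys05, 446, 445 and 633 with BAQ12, 615, 632 and 529.7 with BAQ13, and 626, 574 and 441 with BAQ12O. All BAQ13 libraries were above all vehicle libraries, although vehicle replicate 1 was close to the lowest BAQ13 library. BAQ13 averaged 592 ± 54.7 (SD, n = 3) and vehicle 449.6 ± 58.6 (SD, n = 3), which is 0.40 on the log2 scale. This did not pass the threshold in the fit of 15 libraries (SE 0.14, limma adjusted p = 0.11) and passed it without BAQ12 replicate 3 (SE 0.10, adjusted p = 0.0075), a library of neither group that enters the spread shared by the fit. In BAQ12, replicates 1 and 2 were at the vehicle level (445 ± 0.82, SD, n = 2), and the mean of 508 ± 109 (SD, n = 3) rested on replicate 3.

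CTSC and CTSD stand on the same chromosome and had opposite signs with BAQ13, so the bases before their start sites are shown together. The sequences are from RefSeq (GRCh38.p14, minus strand, 5′ to 3′, ending at the base before the annotated start), for CTSC chr11:88337737-88337986 and for CTSD chr11:1763928-1764177, and both overlap in part or whole the gene spans given above, which come from GENCODE. Capitals mark the E-box CACGTG and the GC box GGGCGG, read on both strands (CCGCCC is the GC box on the other strand, and neighbouring GC boxes can overlap).
CTSC: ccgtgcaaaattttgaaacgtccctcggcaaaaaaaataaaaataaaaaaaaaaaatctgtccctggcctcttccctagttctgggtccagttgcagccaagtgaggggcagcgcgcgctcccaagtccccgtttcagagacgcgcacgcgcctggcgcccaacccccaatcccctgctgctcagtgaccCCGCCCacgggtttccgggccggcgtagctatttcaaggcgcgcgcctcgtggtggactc
CTSD: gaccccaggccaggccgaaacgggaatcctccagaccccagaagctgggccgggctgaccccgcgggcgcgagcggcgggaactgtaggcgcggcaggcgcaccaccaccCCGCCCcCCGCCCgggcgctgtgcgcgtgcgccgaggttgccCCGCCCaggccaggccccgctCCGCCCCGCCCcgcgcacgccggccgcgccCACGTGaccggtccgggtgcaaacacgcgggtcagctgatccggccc
Of the 10 genes, 7 had a RefSeq promoter entry (250 bases before to 50 after the start), and CTSB, CTSK and CSTB had none. CACGTG was found in 1 of the 7, CTSD, where it is part of the longer TCACGTG of the CLEAR element read on the other strand. Over 35116 promoters of the same length, 7.26% held CACGTG, and the longer form was held by 3.71%. The GC box was found in 7 of 7 (1 time in CTSC and 5 times in CTSD) and in 45.0% of all promoters, and TATAAA in 0 of 7 and in 11.5% of all. A match describes the letters in this window and is not a measured binding site.

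CSTB, the cytosolic inhibitor, had the largest positive log2 fold change of the 10 genes with BAQ13. The gene (ENSG00000160213) lies on chromosome 21, 43772511 to 43776445 on the minus strand. Its normalised read count was 85.5, 116 and 103 in the vehicle libraries, 99.0, 112 and 89.6 with Lys05, 136, 152 and 90.4 with BAQ12, 125, 153 and 159 with BAQ13, and 97.0, 99.2 and 117 with BAQ12O. All BAQ13 libraries and BAQ12 replicates 1 and 2 were above all vehicle libraries, whereas BAQ12 replicate 3 was within the vehicle range. With BAQ13 the log2 fold change was 0.52, which missed the threshold in the fit of 15 libraries (SE 0.175, limma adjusted p = 0.094) and passed it without BAQ12 replicate 3 (SE 0.13, adjusted p = 0.0065). BAQ12 gave 0.29 (limma adjusted p = 0.50) with all 3 libraries and 0.51 (SE 0.15, adjusted p = 0.094) without replicate 3. With Lys05 and BAQ12O the means were 100.4 ± 11.5 and 104 ± 11.1 (SD, n = 3 each), against 101 ± 15.4 (SD, n = 3) with vehicle.

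The second inhibitor, CST3, did not follow CSTB. It was at 85.0 ± 11.4 with vehicle, 96.3 ± 19.2 with Lys05, 103 ± 30.8 with BAQ12, 88.4 ± 2.83 with BAQ13 and 78.7 ± 16.2 with BAQ12O (SD, n = 3 each), and no comparison with vehicle passed the threshold. The highest value, 137, was that of BAQ12 replicate 3, and the other two BAQ12 libraries averaged 86.4 ± 14 (SD, n = 2). CST3 (ENSG00000101439) lies on chromosome 20, 23626706 to 23638473.

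Reads of the protease CTSB per read of its inhibitor CSTB were taken within each library as a description, with no test. Only the change of this ratio between groups can be read, since the length of the transcripts and the library kit set its size. The ratio was 3.42, 2.26 and 2.69 with vehicle, 2.85, 2.41 and 2.96 with Lys05, 1.81, 1.63 and 2.78 with BAQ12, 1.72, 1.35 and 1.25 with BAQ13, and 2.77, 2.84 and 2.87 with BAQ12O. The BAQ13 libraries (1.44 ± 0.245, SD, n = 3) lay below all vehicle libraries (2.79 ± 0.585, SD, n = 3), and BAQ12 replicates 1 and 2 did so too, while replicate 3 did not. This separation follows from the CTSB and CSTB values already given, since CTSB was lower and CSTB higher in those libraries. The ratio is therefore no further evidence.

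**Figure D2:**
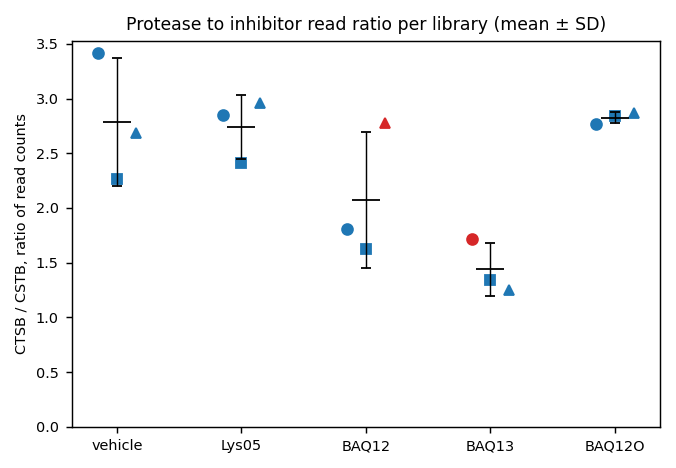
Ratio of CTSB to CSTB normalised read counts (vertical axis, from 0) in each of the 15 libraries, by treatment, with the replicate number as the shape of the point (circle 1, square 2, triangle 3), red for BAQ12 replicate 3 and BAQ13 replicate 1, and black lines for the mean ± SD of 3 libraries. The BAQ13 libraries range from 1.25 to 1.72 and the vehicle libraries from 2.26 to 3.42.

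CTSL and CTSV are close paralogs on chromosome 9, at 87725519 to 87731393 and at 97029679 to 97039643. Cathepsin L is a broad endopeptidase, and cathepsin V is known mainly from thymus, testis and skin. CTSL was at 191, 202 and 189 in the vehicle libraries, 244, 230.4 and 71.6 with BAQ12, and 122, 191 and 198 with BAQ13. In BAQ12 its value in replicate 3 was thus far below the other two, and the sign of the log2 fold change depended on it: -0.28 (limma adjusted p = 0.72) with it and 0.29 (adjusted p = 0.57) without it. CTSV was at 43.2, 41.3 and 39.5 with vehicle, 40.4, 36.6 and 27.6 with BAQ12, 25.2, 35.5 and 29.3 with BAQ13, and 31.3, 31.5 and 33.1 with BAQ12O. Every BAQ13 and BAQ12O library was below every vehicle library, but the log2 fold changes of -0.46 (SE 0.18, limma adjusted p = 0.16) and -0.36 (SE 0.18, adjusted p = 0.42) did not pass the threshold. The 6 pseudogenes of CTSL in the files had 0 reads, and how reads shared between the paralogs were counted is not given in the sources used here.

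CTSZ, a carboxypeptidase, and CTSH, an aminopeptidase, trim proteins from their ends. CTSZ was at 269, 284 and 232 with vehicle, 220.1, 264 and 615 with BAQ12, and 425, 252 and 174 with BAQ13. The BAQ12 mean of 366 ± 217 (SD, n = 3) was 242 ± 30.7 (SD, n = 2) without replicate 3, so that the log2 fold change went from 0.34 to -0.11. CTSH was at 69.7, 74.8 and 70.7 with vehicle, 75.2, 74.0 and 116 with BAQ12, 114, 90.2 and 73.8 with BAQ13, and 83.0, 85.8 and 85.5 with BAQ12O. The BAQ12O libraries were all above vehicle and close together (84.8 ± 1.53, SD, n = 3). Their log2 fold change was 0.24 (95% confidence interval -0.12 to 0.60, limma adjusted p = 0.60). The highest CTSZ and CTSH values were those of BAQ12 replicate 3 and BAQ13 replicate 1. CTSZ (ENSG00000101160) lies on chromosome 20, 58995185 to 59007247, and CTSH (ENSG00000103811) on chromosome 15, 78921058 to 78949574.

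CTSK, the collagen-degrading cathepsin of osteoclasts, had the fewest reads of the 10 genes, 265 over all libraries and 6 to 32 in each. Its group means lay between 13.7 and 19.7 normalised reads and its 95% confidence intervals against vehicle were the widest, for BAQ13 from -0.63 to 1.23 on the log2 scale. ACP5 and CSF1R, which mark osteoclasts and macrophages, had 0 reads in every library. CTSK (ENSG00000143387) lies on chromosome 1, 150796208 to 150808323.

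Against vehicle, BAQ13 was the only treatment with members past the threshold in the fit of 15 libraries. CTSB and CTSC were lower, 2 of 10, where 5.77% of the 10495 genes tested were called and 2.19% were called lower. The groups did not overlap for 5 of 10 members (CTSB, CTSC and CTSV lower, CTSD and CSTB higher) and for 28.9% of all genes. The median log2 fold change of the 10 members was 0.045 and that of all genes tested -0.004, with 6 members positive and 4 negative. Without BAQ12 replicate 3, 4 of 10 were called, CTSD and CSTB being added, where 13.7% of all genes were called. All 10 members had passed the filter on low counts.

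Lys05 gave 0 of 10 members past the threshold by limma, edgeR or DESeq2, where 0.238% of all genes were called by limma. At an unadjusted limma p under 0.05 there were 0 members and 523 of the 10495 genes tested. Its log2 fold changes were between -0.02 and 0.17. The Lys05 and vehicle groups overlapped for every member, while 15.6% of all genes did not overlap.

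BAQ12 likewise gave 0 of 10 by the 3 tools, where limma called 0.981% of all genes. An unadjusted limma p under 0.05 was reached by 0 members and by 1239 of the 10495 genes tested. CTSB and CTSC did not overlap with vehicle (15.4% of all genes did not), and without replicate 3 CTSL and CSTB were added (28.5% of all genes). Without that library 0 of 10 were called by limma, where 1.31% of all genes were called. An unadjusted limma p under 0.05 was then reached by 1 member, CSTB, and by 969 of the genes tested.

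BAQ12O gave 0 of 10 by the 3 tools, where limma called 1.48% of all genes. An unadjusted limma p under 0.05 was reached by 0 members and by 1339 of the 10495 genes tested. CTSH and CTSV did not overlap with vehicle (25.8% of all genes did not). CTSD, which was higher than every vehicle library in 2 of the 3 BAQ12O libraries, had a log2 fold change of 0.28 (95% confidence interval -0.03 to 0.58, limma adjusted p = 0.44). A fit restricted to the 6 vehicle and BAQ12O libraries put it past the threshold (limma adjusted p = 0.043), where 871 of all genes were called (155 in the fit of 15 libraries). The fold change was 0.17 without BAQ12O replicate 1 and 0.42 without BAQ12O replicate 3, both short of the threshold (limma adjusted p = 0.74 and 0.27).

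**Figure D3:**
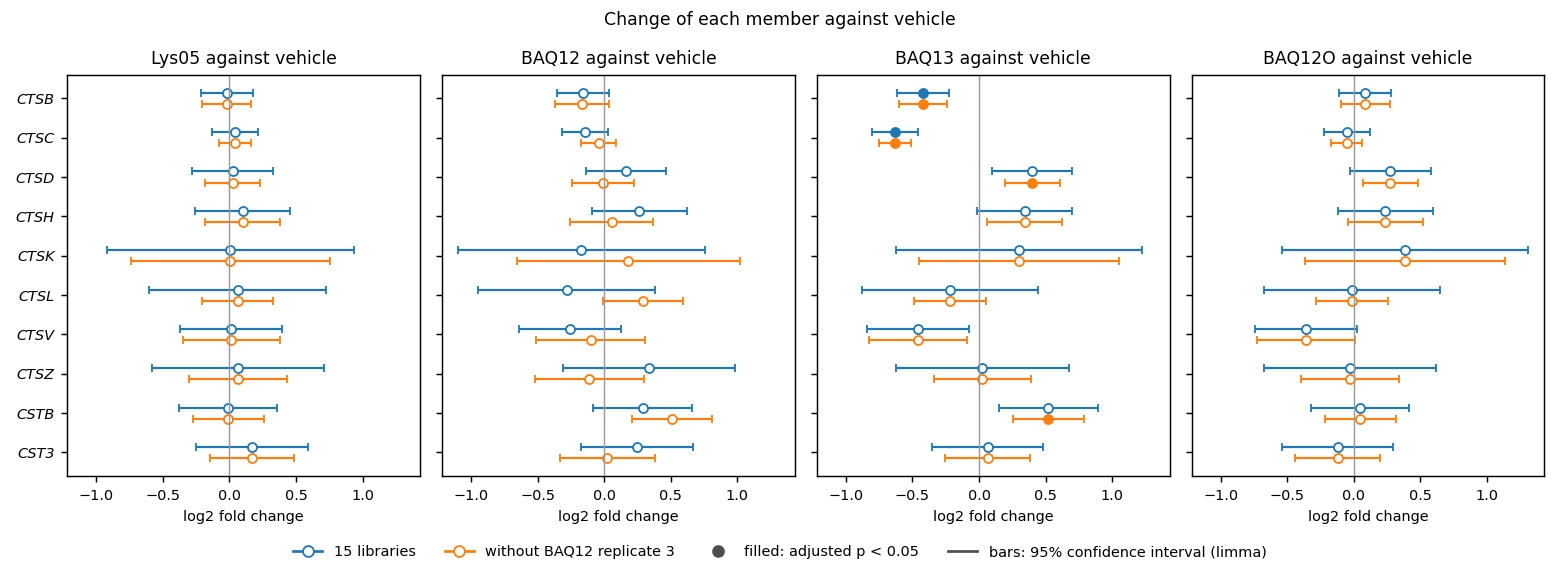
Log2 fold change of each of the 10 genes against vehicle (horizontal axes), 1 panel per treatment, in the fit of 15 libraries (blue) and without BAQ12 replicate 3 (orange), with 95% confidence intervals from limma and filled points for an adjusted p under 0.05. CTSB and CTSC are filled in both fits with BAQ13, CTSD and CSTB only without BAQ12 replicate 3, and no point is filled with Lys05, BAQ12 or BAQ12O.

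The 4 compounds were then compared with each other, in 6 pairs at the same dose and time. CTSC was lower with BAQ13 than with each of the others. Its log2 difference was -0.67 from Lys05 (SE 0.08, limma adjusted p = 6.1e-05), -0.49 from BAQ12 (SE 0.08, adjusted p = 0.0056), and BAQ12O stood 0.58 above BAQ13 (SE 0.08, adjusted p = 0.00055). CTSB was lower with BAQ13 than with Lys05 by a log2 difference of -0.40 (SE 0.09, limma adjusted p = 0.027), and BAQ12O stood 0.51 above BAQ13 (SE 0.09, adjusted p = 0.0069). The CTSB call against Lys05 was lost whenever any 1 of the 6 Lys05 and BAQ13 libraries was omitted, with adjusted p from 0.051 to 0.12.

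BAQ12 and BAQ13, which differ by a methylene unit, thus differed in CTSC. This was the only member called between them, 1 of 10 where 0.562% of all genes were called (0.0572% lower), and the adjusted p was 0.42 in a fit of only their 6 libraries and 1.1e-06 without BAQ12 replicate 3 (log2 difference -0.59, SE 0.06). Without that library CTSD was also called, at 0.41 above BAQ12 (SE 0.11, limma adjusted p = 0.045), 2 of 10 where 3.16% of all genes were called. For CTSB the log2 difference was -0.26 (95% confidence interval -0.46 to -0.07, limma adjusted p = 0.38), with every BAQ13 library below every BAQ12 library. For CSTB it was 0.23 (95% confidence interval -0.14 to 0.60) with BAQ12 replicate 3 and 0.01 (-0.29 to 0.31) without it.

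BAQ13 against Lys05 gave 2 of 10 members, CTSB and CTSC, where 2.66% of all genes were called (0.781% lower), and without BAQ12 replicate 3 also CTSD and CSTB, which were higher with BAQ13 (adjusted p = 0.019 and 0.0094 by limma), where 7.76% were called. BAQ12O against BAQ13 gave 2 of 10, where 1.39% of all genes were called (0.467% higher), and without BAQ12 replicate 3 also CSTB, lower with BAQ12O (log2 difference -0.47, limma adjusted p = 0.035), where 3.69% were called.

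In the other 3 pairs limma, edgeR and DESeq2 each called 0 of 10 members. For BAQ12 against Lys05, 1 member, CTSC, and 752 of the 10495 genes tested had an unadjusted limma p under 0.05. Limma called 0.162% of all genes there. For BAQ12O against Lys05 it was 0 members and 772 genes, with 0.248% of all genes called. For BAQ12O against BAQ12 it was 1 member, CTSB, and 879 genes, with 0.229% called. The 95% confidence intervals of the CTSC difference were -0.36 to -0.01, -0.27 to 0.08 and -0.08 to 0.26 in these pairs, nearer 0 than those of the pairs with BAQ13. Without BAQ12 replicate 3, limma again called 0 of 10 members in these pairs, where it called 0.248%, 0.791% and 0.515% of all genes. For BAQ12 against Lys05 the CTSC difference was then -0.08 (95% confidence interval -0.21 to 0.05), and the only member with an unadjusted p under 0.05 was CSTB at 0.52 (SE 0.15, limma adjusted p = 0.23). For BAQ12O against BAQ12 there were 4 such members, CTSB (0.25), CTSD (0.28), CTSL (-0.30) and CSTB (-0.46). Of the 10495 genes tested, 553 had an unadjusted limma p under 0.05 for BAQ12 against Lys05 and 1281 for BAQ12O against BAQ12.

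**Figure D4:**
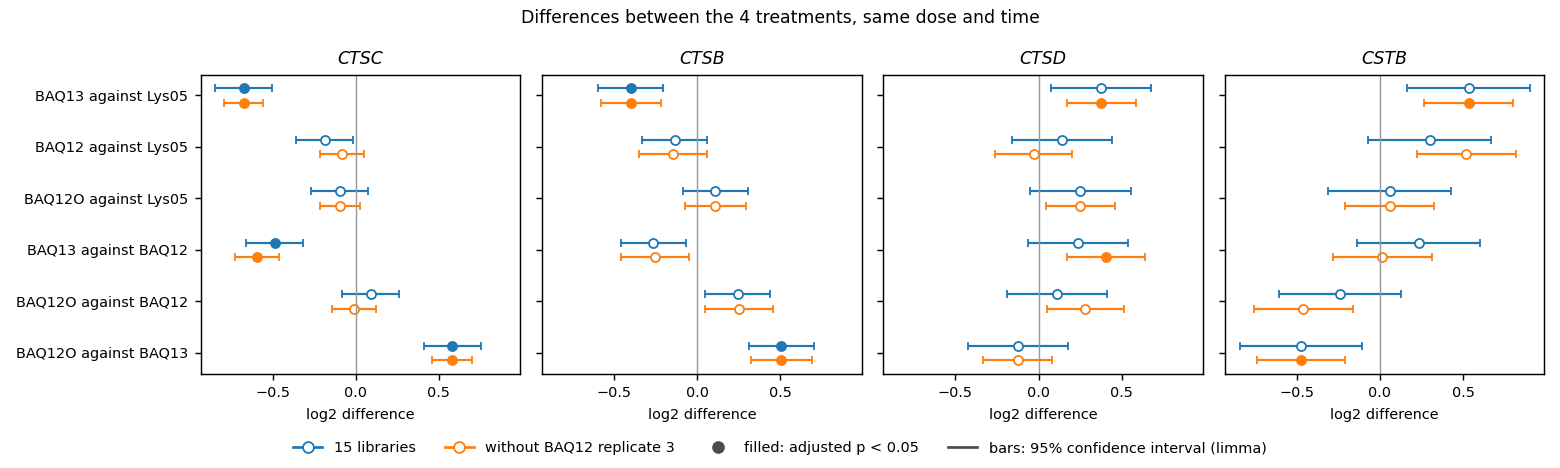
Log2 difference (horizontal axes) in CTSC, CTSB, CTSD and CSTB for the 6 pairs of treatments, in the fit of 15 libraries (blue) and without BAQ12 replicate 3 (orange), with 95% confidence intervals from limma and filled points for an adjusted p under 0.05. The 3 pairs with BAQ13 are filled for CTSC in both fits, and the pairs without BAQ13 have no filled point.

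Ordered by mean level, the groups ran BAQ12O, vehicle, Lys05, BAQ12 and BAQ13 for CTSB and Lys05, vehicle, BAQ12O, BAQ12 and BAQ13 for CTSC. Of the neighbouring pairs in these orders, only BAQ12 and BAQ13 in CTSC differed past the threshold (limma adjusted p = 0.0056), and no neighbours in the order of the other 8 members did. For CTSD the order was BAQ13, BAQ12O, BAQ12, Lys05 and vehicle, with adjusted p between neighbours from 0.77 to 1.0, and for CSTB it was BAQ13, BAQ12, BAQ12O, vehicle and Lys05 (0.74 to 1.0). Without BAQ12 replicate 3 the order of CTSB and CSTB stayed, BAQ12 moved ahead of BAQ12O in CTSC (BAQ12O against BAQ13, limma adjusted p = 5e-08), and BAQ12 moved to the last place in CTSD (0.3 to 1.0 between neighbours).

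BAQ12 replicate 3, which stood apart, and BAQ13 replicate 1 deviated alike in some of the members. In BAQ13 replicate 1, 0.548% of the 5475 genes differed more than 2-fold from the rest of its group. It was 8.26% in BAQ12 replicate 3 and 1.02% in BAQ12 replicate 1. The deviations of BAQ12 replicate 3 and BAQ13 replicate 1 had a Pearson correlation of 0.797 across these genes, which are not independent and share each library's depth and composition. With BAQ13 replicate 3 the correlation was -0.72. Each deviation is taken from the other libraries of the group, so those of BAQ13 replicates 1 and 3 are tied to each other. CTSZ was 1.35 higher in BAQ12 replicate 3 and 1.01 higher in BAQ13 replicate 1 than the mean of the other two on the log2 scale. CTSL was lower in these libraries, by differences of -1.71 and -0.67. CTSK (-1.06 and -1.16), CSTB (-0.66 and -0.32), CTSV (-0.46 and -0.35) and CTSH (0.63 and 0.48) had the same signs in both, whereas CTSB deviated by 0.03 and 0.08. CST3 (0.67 and 0.006), CTSD (0.51 and 0.09) and CTSC (-0.31 and -0.05) deviated in BAQ12 replicate 3 and little in BAQ13 replicate 1. The deviations of these libraries correlated with the GC content of the genes at 0.287 and 0.261, the highest values of the 15 libraries. The next highest was 0.211 (Lys05 replicate 3), and the lowest was -0.325 (BAQ13 replicate 3). A fit with a GC correction of each library, added after seeing the data, left the number of members called in each comparison as it was. In that fit CTSD against vehicle went from 0.40 to 0.25 with BAQ13 and from 0.16 to 0.01 with BAQ12, and CTSC with BAQ12 was at -0.06, none of them called. Without both libraries, an alternative chosen after seeing the data, CTSB, CTSC, CTSD and CSTB were called with BAQ13 against vehicle. CSTB was then called with BAQ12 (log2 fold change 0.51, limma adjusted p = 0.021) and CTSD with BAQ12O (0.28, adjusted p = 0.032). That setting called 1256 of all genes with BAQ13, 222 with BAQ12 and 974 with BAQ12O. In the fit of 15 libraries these counts were 606, 103 and 155.

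**Figure D5:**
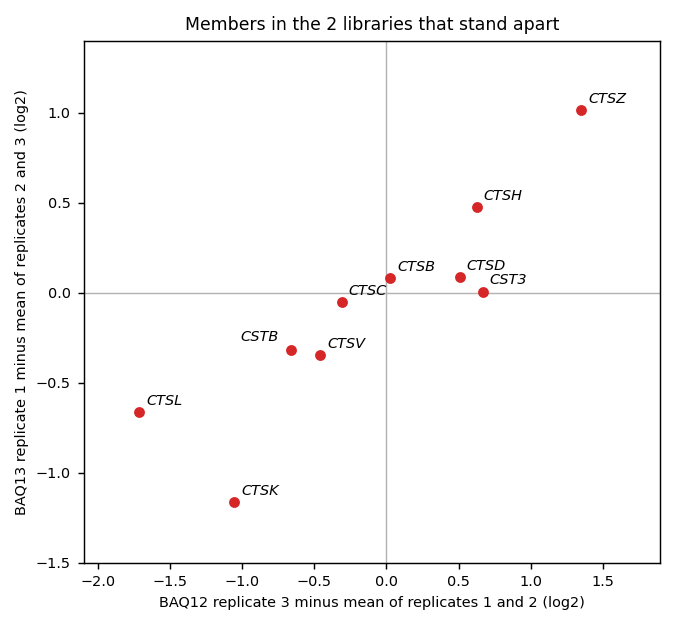
Deviation of each of the 10 genes in BAQ12 replicate 3 (horizontal axis) and in BAQ13 replicate 1 (vertical axis) from the mean of the other two libraries of the group, both in log2 units. CTSZ and CTSH lie above 0 in both libraries, CTSL, CTSK, CSTB and CTSV below 0 in both, and CTSB near 0. CST3 and CTSD (above 0) and CTSC (below 0) deviate in BAQ12 replicate 3 and are near 0 in BAQ13 replicate 1.

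The other lysosomal proteases were described from a list of 15 genes, of which 10 had a read and 6 passed the filter on low counts (CTSA, LGMN, TPP1, SCPEP1, PRCP and DPP7). With BAQ13, 2 of 6 were called, both higher, where 3.58% of all genes were called higher. CTSA, a serine carboxypeptidase that also protects NEU1 and beta-galactosidase, was at 221, 166 and 171 with vehicle, 368, 316 and 274 with BAQ13, and 281, 288 and 292 with BAQ12O. All BAQ13 and BAQ12O libraries were above vehicle, with log2 fold changes of 0.78 (SE 0.17, limma adjusted p = 0.011) and 0.64 (SE 0.17, adjusted p = 0.086, or 0.00069 without BAQ12 replicate 3). The CTSA call with BAQ13 was lost without vehicle replicate 2 (adjusted p = 0.07), vehicle replicate 3 (0.064) or BAQ13 replicate 1 (0.061). TPP1, a tripeptidyl peptidase, was at 115, 112 and 128 with vehicle, 190.4, 192 and 190.3 with BAQ13, and 175, 172 and 163 with BAQ12O. Its log2 fold changes were 0.69 with BAQ13 (SE 0.10, limma adjusted p = 0.00021) and 0.52 with BAQ12O (SE 0.10, adjusted p = 0.0093), the latter being 1 of 6 where 0.934% of all genes were called higher. That TPP1 call was lost without vehicle replicate 1 (adjusted p = 0.052), vehicle replicate 2 (0.062) or BAQ12O replicate 2 (0.05). DPP7, a dipeptidyl peptidase, was called higher with BAQ13 in 1 of 8 fits that left out libraries, the one without BAQ12 replicate 3 (log2 fold change 0.52, limma adjusted p = 0.018). Its fold change was 0.27 without BAQ13 replicate 1 (adjusted p = 0.73). LGMN, the asparaginyl endopeptidase of the lysosome, was at -0.55 with BAQ13 (adjusted p = 0.45). PRCP, a serine carboxypeptidase, was at -0.20 with BAQ13 (adjusted p = 0.47) and -0.49 with BAQ12 (0.13). With Lys05 and BAQ12, limma called 0 of 6, with median log2 fold changes of 0.185 and 0.399 beside 0.408 with BAQ13 and 0.202 with BAQ12O. The BAQ12 median was 0.199 without BAQ12 replicate 3, where DPP7 was at 0.01.

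CTSS, CTSG and CTSW, cathepsins known from blood cells, had 2, 0 and 0 reads over the 15 libraries, and CTSF had 0. A list of 18 other genes held members of the cystatin and serpin families, not all of them known to inhibit cathepsins. Of these, 2 had a read (CSTA with 3 reads and HRG with 1), and none could be tested. CSTB and CST3 were therefore the only inhibitors of the lists with a level above the floor of 3 reads in any library. The summed immune markers (PTPRC, CD68, CD14 and LYZ, all 4 with a read) were at 3.35 to 6.43 normalised reads with vehicle, 3.73 to 6.25 with Lys05, 6.8 to 12.8 with BAQ12, 6.38 to 8.4 with BAQ13 and 8.62 to 17.2 with BAQ12O. The summed fibroblast markers (3 of 4 with a read, PDGFRB at 0) were at 258 to 289 with vehicle, 213 to 230.0 with Lys05, 178 to 199.8 with BAQ12, 174 to 192 with BAQ13 and 215 to 243 with BAQ12O. The summed epithelial markers (7 of 8 with a read) were at 1793 to 1864 with vehicle, 1455 to 1676 with Lys05, 1478 to 1674 with BAQ12, 1469 to 1494 with BAQ13 and 1469.7 to 1592 with BAQ12O. The fibroblast and epithelial sums were thus below vehicle with all 4 treatments, but a few genes set them. Over the 15 libraries, COL1A2 had 2818 reads, COL3A1 487 and COL1A1 12. Among the epithelial markers, KRT18 had 11417 reads, KRT19 7780, KRT8 3713 and CLDN4 1430. The mesenchymal sum was at 10244 to 10809 with vehicle, 10389 to 10933 with Lys05, 9382 to 10652 with BAQ12, 9580 to 10692 with BAQ13 and 10098 to 10867 with BAQ12O. The endothelial sum was nearly all CDH5 (848 reads over the 15 libraries), while VWF had 1 read and PECAM1 0. It was at 50.25 to 58.95 with vehicle, 43.7 to 56.9 with Lys05 and 23.9 to 57.8 with BAQ12. With BAQ13 it was at 50.4 to 56.15 and with BAQ12O at 67.55 to 75.3. The part of these sums in the CTSC and CTSB results was not tested. All of these are transcript levels in a single cell line and not counts of cells of a type. In RNA from a whole culture, fewer cells with a transcript and less of it per cell cannot be told apart.

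For the 4 members called in either fit, the 3 genes with the most alike pattern were taken over 14 libraries (without BAQ12 replicate 3), by Pearson's r of log2 values among 5475 well-covered genes, as a description. CTSC was most like HMMR (r = 0.941), SRGN (0.938) and EBPL (0.938). CTSB was most like ZRANB2 (0.925), SRRM1P2 (0.922), a pseudogene whose reads may belong to its parent gene, and TMEM136 (0.891). CTSD was most like RPL28 (0.929), NR2F6 (0.914) and RPS19 (0.891), and CSTB was most like DBI (0.906), CYB5B (0.895) and PGRMC1 (0.88). These libraries share the same treatments, size factors and group means.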

How the data were processed

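RNA of MIA PaCa-2 cells from 15 libraries in 5 groups of 3 was analysed, with groups and replicate numbers taken from the sample labels. The submitters' processing notes name STAR, HTSeq, DESeq2 and GRCh38, without versions or settings. For the libraries, the labels give a 3′ mRNA kit, the study's methods a stranded paired-end one, and which was used is not settled here. Differences in reads between genes were therefore not read as differences in transcript amount, and reads of antisense genes were not told apart. The marker sums weight each gene by its reads. The authors deposited 1 normalised signal per gene and library, the count of reads on the gene over a library factor. All values (100% in each library) were whole multiples of 1 step within a tolerance of 0.001 reads, so whole reads were recovered. The floor of 3 reads covers counting error only, and the 95% confidence intervals are limma's, from the spread between libraries. The members and gene lists were chosen with earlier results of these data known.

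log2(value + 1) was fitted with limma 3.58.1 (eBayes with trend) over all 15 libraries without covariates, on 10495 genes kept by edgeR's filterByExpr (minimum count 10, minimum total 15). Benjamini-Hochberg adjustment ran over all genes tested within each of 10 comparisons, and calls were made at an adjusted p under 0.05. Alternatives were edgeR 4.0.16 (quasi-likelihood) and DESeq2 1.42.0 on the recovered reads, other pseudocounts, filters and scaling, a fit of the 6 libraries compared, a replicate block, and leaving out libraries. A GC correction and leaving out 2 libraries together were added after seeing the data. The fits were tested on simulated data with the same dispersion for all genes, no library standing apart, and larger changes than the members showed. That test therefore does not cover calls that turn on BAQ12 replicate 3. All members, and the genes of the protease list called against vehicle, are named. Alike genes were sought among genes with a mean of at least 50. Positions are from GENCODE 29 (GRCh38) and promoters from RefSeq (GRCh38.p14). Versions were R 4.3.3, Python 3.11.15, pandas 2.3.3 and matplotlib 3.10.9.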

Additional observations from a re-analysis of the deposited data

How the results depend on the processing

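The number of members called stayed at its main value, or within 1.5 times of it, in 153 of 176 refits of the 10 comparisons. No filter on low values gave 1 for BAQ13 against Lys05 (main 2), where 214 of all genes were called (main 279). A fit of only the 6 libraries compared, which changes the estimate of the spread, also changed the calls over all genes. It gave 4 for BAQ13 against vehicle (main 2), where 947 of all genes were called (main 606). BAQ13 against Lys05 had 4 (main 2), where 389 were called (main 279). BAQ12O against vehicle had 1 (main 0), where 871 were called (main 155). BAQ13 against BAQ12 had 0 (main 1), where 9 were called (main 59). Leaving out libraries gave 1 to 4 for BAQ13 against vehicle, 1 to 5 for BAQ13 against Lys05, 1 to 2 for BAQ13 against BAQ12, 2 to 3 for BAQ12O against BAQ13, and 0 to 1 for BAQ12 against vehicle, BAQ12O against vehicle, BAQ12 against Lys05 and BAQ12O against BAQ12, the 1 being reached without BAQ12 replicate 3 and BAQ13 replicate 1. Without both, 222, 974, 54 and 288 of all genes were called in these last comparisons (main 103, 155, 17 and 24). The 5 for BAQ13 against Lys05 also came without both, where 631 genes were called (main 279). Without BAQ12 replicate 3 alone, BAQ13 against vehicle had 4 members and 1441 genes (main 606). BAQ13 against BAQ12 then had 332 genes (main 59) and BAQ12O against BAQ13 387 (main 146).

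The replicate block gave 1 for BAQ13 against Lys05 (main 2), where 199 of all genes were called (main 279). CTSB had a limma adjusted p of 0.054 there, and no other member count changed. No consistent pairing by number was seen. Correlations of same-numbered deviations ran from -0.492 to 0.2 over 30 pairs, and in 0 comparisons were all above 0.1. For BAQ12 against Lys05 they were 0.11, 0.06 and 0.2. Libraries that stand apart enter these deviations, so the check cannot exclude a pairing. BAQ13 replicate 1 deviated like BAQ12 replicate 3 (0.797) and not like BAQ12 replicate 1 (-0.488).

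Of the log2 fold changes, 681 of 739 refits kept their direction and side of the threshold. Those that changed sign had not passed it. Without BAQ12 replicate 3, alone or with BAQ13 replicate 1, BAQ12 against vehicle gave -0.006 for CTSD, 0.181 for CTSK, 0.288 for CTSL and -0.114 for CTSZ. Without BAQ13 replicate 1, BAQ13 gave 0.004 for CTSL and -0.312 for CTSZ, and with the GC correction -0.069 for CTSZ. Without a vehicle library, CTSK was at 0.215 with BAQ12 (replicate 1) and -0.079 with BAQ13 (replicate 3), CTSZ at -0.057 with BAQ13 (replicate 3) and CST3 at -0.001 with BAQ13 (replicate 2). Without BAQ12O replicate 3, CTSB was at -0.01 with BAQ12O. Where not stated, the cause was not tested. CTSC with BAQ13 against vehicle and Lys05 was called in every refit run. Over all fits that left out libraries, BAQ12 ranged from -0.006 to 0.268 for CTSD, -0.55 to 0.215 for CTSK, -0.589 to 0.288 for CTSL and -0.114 to 0.626 for CTSZ, BAQ13 from -0.079 to 0.688 for CTSK, -0.34 to 0.004 for CTSL, -0.312 to 0.328 for CTSZ and -0.001 to 0.17 for CST3, and BAQ12O from -0.01 to 0.152 for CTSB. CTSK, with 6 to 32 reads per library, had the fewest, and depth as the cause of its spread was not tested.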
